A study of Mus musculus with 6 samples.

Results

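Immediate early genes are switched on within minutes of a stimulus, from proteins the cell already holds and without new protein synthesis. Many encode transcription factors: FOS and JUN proteins pair to form AP-1, and EGR proteins are zinc finger factors, while other early genes encode proteins that end the response. Their messages are short-lived, so their level in a tissue reflects recent signalling in its cells. The 10 genes described here, Fos, Fosb, Jun, Junb, Jund, Egr1, Egr2, Ier2, Zfp36 and Dusp1, were picked by symbol from a deposited table of 26452 genes, and all 10 were found. RNA sequencing was done on whole spleens of 3 Was-/- mice (129S6/SvEvTac-Wastm1Sbs/J; libraries KO451, KO452 and KO457) and 3 wild-type 129S6/SvEvTac mice (WT453, WT454 and WT455), each library being 1 animal, and all mice were males aged 10 weeks. The product of Was drives actin assembly in blood cells and is missing or faulty in Wiskott-Aldrich syndrome, and the labels do not name the altered part of the gene. Values below are normalized counts, meaning reads over a scaling factor for each library, or log2(normalized count + 1), as the authors deposited them.

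Was itself had 508, 407 and 409 normalized counts in Was-/- libraries, against 4142, 6561 and 6279 in wild-type libraries, and passed the test over all genes (limma, adjusted p = 0.0117). Reads assigned to genes ranged from 30661759 to 38402758 per library. WT453 stood apart from the other wild-type libraries: mitochondrial messenger RNAs summed to 13500 ppm of its reads (CPM), against 67300 in WT454 and 60500 in WT455. Lists of defining genes of B cells (8 of 8 tested), T cells (8 of 8), red pulp macrophages (8 of 8) and stroma and endothelium (11 of 12) were measured with none at 0 in every library. B cell genes were lower in Was-/- spleens in 8 of 8, with a median log2 fold change of -0.64 (-1.13 without WT453), and summed to between 1370 and 2880 CPM in Was-/- libraries and between 1440 and 4970 CPM in wild-type libraries. T cell genes were lower in 8 of 8, with a median of -0.51 (-0.96 without WT453), and summed to between 381 and 790 CPM in Was-/- libraries and between 462 and 1180 CPM in wild-type libraries. Their part in the immediate early gene values was not tested. The 4 measured pancreas genes summed to between 32.2 and 44.1 CPM in Was-/- libraries and between 14.0 and 24.2 CPM in wild-type libraries. In a whole tissue, fewer cells of a type and less RNA per cell cannot be told apart.

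All 10 immediate early genes had a lower mean in Was-/- spleens than in wild-type spleens, against 52.3% of the 22071 genes tested. The median log2 fold change was -0.95 over the 10 genes and -0.03 over all genes tested. The differences were largest for Fosb (-2.37) and Fos (-2.35) and smallest for Egr1 (-0.36), and 5 of the 10 were at -1 or lower, against 12.3% of genes tested. None of the 10 passed the test over all genes (limma, Benjamini-Hochberg adjusted p between 0.408 and 0.717, with 0.00906% of genes called), and 0 passed with voom or with sample weights. Fos, Zfp36 and Dusp1, 3 of the 10, had an unadjusted p under 0.05 (limma), against a background of 5.46% of genes lower at that limit. The same 3 genes were those in which the 3 Was-/- libraries all lay below the 3 wild-type libraries, a pattern found in 9.94% of genes tested. The 10 genes were measured in the same 6 libraries, so they are not independent results.

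Much of the difference rested on WT453. It held the highest value of the 6 libraries in 8 of the 10 genes, against 31.7% of genes tested. Without WT453 all 10 means were still lower in Was-/- spleens (51.3% of genes tested), the median log2 fold change was -0.57 (-0.02 over all genes), and 2 genes, Fos and Zfp36, had an unadjusted limma p under 0.05 (9.53% of genes lower at that limit). None passed the adjusted limit without it (limma, 0.00923% of genes called). The Was-/- libraries all lay below both WT454 and WT455 in 4 genes, Fos, Egr2, Zfp36 and Dusp1, against 21.2% of genes tested.

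**Figure D1:**
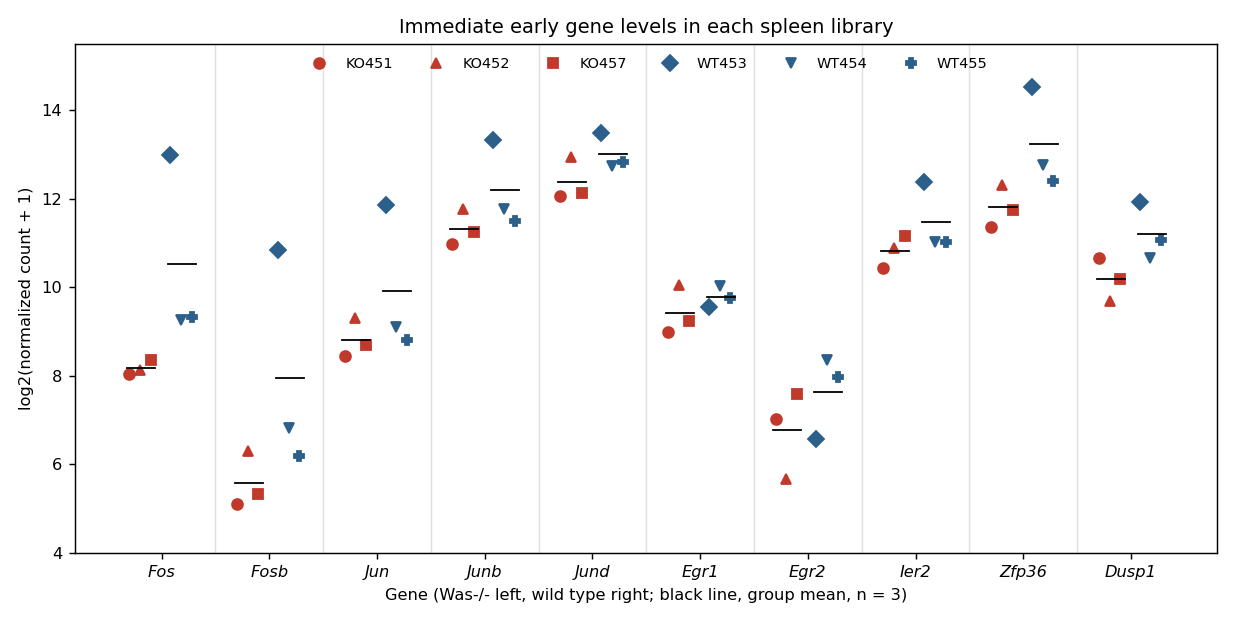
Levels of the 10 immediate early genes as log2(normalized count + 1) on the vertical axis, 1 point per library, with Was-/- libraries (red) left of wild-type libraries (blue) and black lines at group means (n = 3 each). WT453 (diamonds) is the highest point in 8 genes, all but Egr1 and Egr2, and Fos in the Was-/- libraries lies between 8.04 and 8.35, below every wild-type library.

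The DNA at the start sites is shown for 4 genes that were highest in WT453 and for Egr2, which was not. RefSeq start-site windows of GRCm38.p6, from 250 bases before to 50 bases after the start, were found for 8 of the 10 genes, all but Egr1 and Ier2. Elements farther from the start were not searched. Capitals mark the full cAMP response element TGACGTCA and its core TGACG, which CREB binds, the core promoter element TATAAA, and the CArG box of the serum response element, which SRF binds, on either strand. Fos is at chr12:85473640-85473939 (plus strand), Fosb at chr7:19309996-19310295 (minus), Zfp36 at chr7:28379179-28379478 (minus), Dusp1 at chr17:26508423-26508722 (minus) and the third of 5 Egr2 windows at chr10:67537619-67537918 (plus). Each is written 5' to 3' on the strand of its gene.
Fos: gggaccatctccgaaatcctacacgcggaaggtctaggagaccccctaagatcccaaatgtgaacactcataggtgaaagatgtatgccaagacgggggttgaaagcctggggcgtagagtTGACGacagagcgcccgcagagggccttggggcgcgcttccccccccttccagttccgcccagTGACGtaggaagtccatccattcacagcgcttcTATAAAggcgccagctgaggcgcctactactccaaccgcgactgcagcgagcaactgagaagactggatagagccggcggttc
Fosb: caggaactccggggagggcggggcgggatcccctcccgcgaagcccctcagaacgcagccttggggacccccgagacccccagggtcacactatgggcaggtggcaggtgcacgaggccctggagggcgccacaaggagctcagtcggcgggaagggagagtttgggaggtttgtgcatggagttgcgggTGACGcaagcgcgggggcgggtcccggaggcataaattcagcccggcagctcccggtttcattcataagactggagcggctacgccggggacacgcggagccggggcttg
Zfp36: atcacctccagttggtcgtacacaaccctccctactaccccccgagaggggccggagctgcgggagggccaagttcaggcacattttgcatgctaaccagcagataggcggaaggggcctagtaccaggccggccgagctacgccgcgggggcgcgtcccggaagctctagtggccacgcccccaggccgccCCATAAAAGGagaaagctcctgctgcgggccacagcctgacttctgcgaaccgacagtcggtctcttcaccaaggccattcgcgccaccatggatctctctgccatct
Dusp1: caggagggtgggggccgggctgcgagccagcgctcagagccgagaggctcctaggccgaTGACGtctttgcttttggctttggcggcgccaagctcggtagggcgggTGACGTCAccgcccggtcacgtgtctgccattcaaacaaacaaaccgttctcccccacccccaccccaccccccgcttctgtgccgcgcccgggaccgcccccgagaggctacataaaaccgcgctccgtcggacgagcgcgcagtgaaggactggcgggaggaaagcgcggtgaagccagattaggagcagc
Egr2: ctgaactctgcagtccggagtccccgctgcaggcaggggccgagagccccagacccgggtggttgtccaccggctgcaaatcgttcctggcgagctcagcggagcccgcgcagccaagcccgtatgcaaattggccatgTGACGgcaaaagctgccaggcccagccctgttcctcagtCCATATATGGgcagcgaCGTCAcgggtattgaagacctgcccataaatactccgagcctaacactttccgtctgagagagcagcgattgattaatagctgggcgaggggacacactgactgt

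TGACG was present in 5 of the 8 genes, Fos, Fosb, Junb, Egr2 and Dusp1, against 20.8% of 32851 windows of this length. In Fos it lay at -66 and -129, with TATAAA at -33, and in Fosb at -60, counted from the RefSeq start. Dusp1 alone of the 8 held the full TGACGTCA, at -143, found in 1.79% of windows, and each full element also counts as TGACG on both strands. The CArG box was found in Egr2, at -72 in the window shown, and in Zfp36, at -58, against 1.63% of windows. TATAAA was present in Fos and Junb (13.6% of windows), CCGGAA, an ETS factor motif, in Egr2 and Zfp36 (14.9%), and GGGCGG, an SP1 motif, in 6 of the 8 genes (35.7%). Egr2 has 5 windows and was counted where any of them held a motif, whereas the shares are per window, so they are not matched for Egr2: its CCGGAA was in the second window and its GGGCGG in the first and second, and neither was in the window shown. The EGR motif GCGTGGGCG (0.612% of windows) and the AP-1 motif TGANTCA (7.81%) were in none of the 8. Only these letters were searched, so other forms of either site were not counted, such as TGACATCA in the Jun window. The Jund window (chr8:70697489-70697788) lies wholly before the start of the GENCODE model of Jund, at 70698949, so its lack of motifs may not describe that start. A match is a description of these letters and not evidence of binding.

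Fos, the partner of JUN proteins in AP-1, had 262, 282 and 326 normalized counts in Was-/- libraries, against 8126, 613 and 641 in wild-type libraries (WT453, WT454 and WT455, in that order here and below). The Was-/- libraries lay close together and under every wild-type library, and WT453 was 12.9-fold above the mean of WT454 and WT455. Mean log2 values were 8.18 ± 0.16 in Was-/- and 10.53 ± 2.13 in wild-type spleens (SD, n = 3 each). The log2 fold change was -2.35 ± 0.94 (SE; limma, unadjusted p = 0.0396, adjusted p = 0.433). Without WT453 it was -1.12 ± 0.20 (SE; limma, unadjusted p = 0.00115, adjusted p = 0.19), a smaller difference with a smaller error. Fos (chromosome 12, 85473890 to 85477273, plus strand) has 4 exons and no overlapping gene model.

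Fosb, a close relative of Fos, had 33.2, 78.0 and 39.5 normalized counts in Was-/- libraries, against 1842, 111 and 71.7 in wild-type libraries. WT453 was 20.4-fold above the mean of the other wild-type libraries, the widest gap of the 10 genes, and KO452 lay above WT455, so the groups overlapped. Fosb had the lowest count of reads in 1 library among the 10 genes, 31 in KO451 (95% exact Poisson interval 21.1 to 44.0), and such intervals cover counting error only. The log2 fold change was -2.37 ± 1.16 (SE; limma, adjusted p = 0.502), and -0.92 ± 0.48 without WT453.

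Jun, the founding JUN member, had 346, 632 and 416 normalized counts in Was-/- libraries, against 3698, 547 and 450 in wild-type libraries. WT454 and WT455 lay inside the range of the Was-/- libraries, and the log2 fold change of -1.11 ± 0.77 (SE; limma, adjusted p = 0.617) became -0.14 ± 0.30 without that library. Junb, a JUN protein that also restrains JUN activity, had 2014, 3475 and 2420 normalized counts in Was-/- libraries, against 10285, 3462 and 2874 in wild-type libraries. KO452 and WT454 were level, and the log2 fold change was -0.86 ± 0.49 (SE; limma, adjusted p = 0.538), or -0.30 ± 0.25 without WT453. Jund, the JUN member with the steadiest expression in most cells, had 4286, 7932 and 4520 normalized counts in Was-/- libraries, against 11438, 6877 and 7320 in wild-type libraries. WT453 exceeded the other wild-type libraries by 1.61-fold only, KO452 lay above both of them, and the log2 fold change was -0.64 ± 0.32 (SE; limma, adjusted p = 0.508). Within AP-1 the excess of WT453 thus ran from 20.4-fold for Fosb and 12.9-fold for Fos through 7.44-fold for Jun and 3.26-fold for Junb to 1.61-fold for Jund.

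The Egr genes did not follow WT453. Egr1, a zinc finger factor induced by growth factor and antigen receptor signals, had 503, 1065 and 606 normalized counts in Was-/- libraries, against 753, 1039 and 868 in wild-type libraries. WT453 was the lowest wild-type library, KO452 was the highest of all 6, and the log2 fold change was -0.36 ± 0.32 (SE; limma, adjusted p = 0.717). Egr2, which limits T cell activation, had 130, 50.0 and 193 normalized counts in Was-/- libraries, against 93.8, 325 and 249 in wild-type libraries. WT453 lay at 0.332 of the mean level of WT454 and WT455, on the opposite side from Fos. B cell and T cell genes were also below their 6-library means in WT453 (mean log2 deviations of -0.81 and -0.57). They were below them in KO451 and KO457 too, where Egr2 was above its level in WT453. In KO452, the lowest library for Egr2, they were above their means (0.24 and 0.25). Their part in the Egr2 values was not tested. The log2 fold change was -0.86 ± 0.64 (SE; limma, adjusted p = 0.65) with all libraries and -1.39 ± 0.57 without WT453 (unadjusted p = 0.0502, limma), so that Egr2 was the gene whose difference grew most when WT453 was left out. The log2 difference of Fos from Egr1 inside a library was between -1.91 and -0.89 in Was-/- libraries, and 3.43 in WT453, -0.76 in WT454 and -0.44 in WT455, without scaling for length, so that only its change between libraries can be read.

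**Figure D2:**
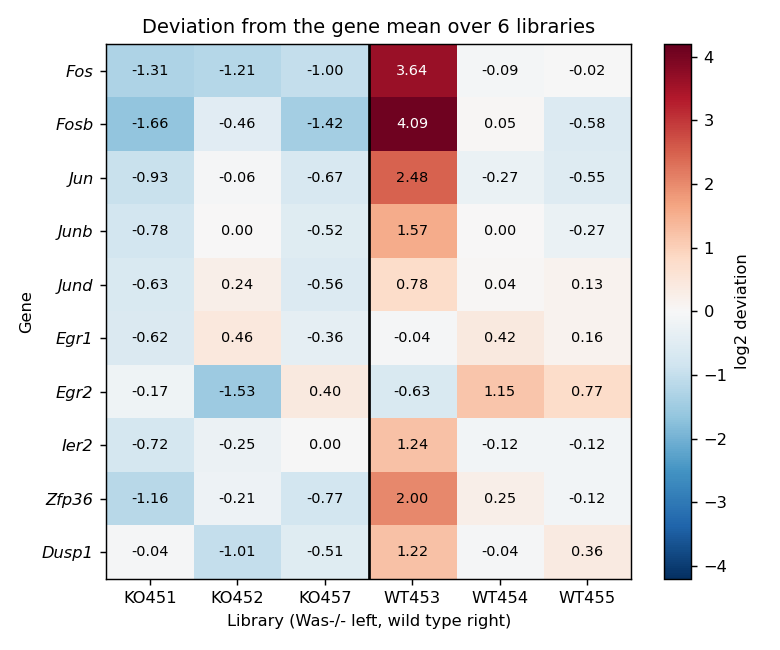
Deviation of each of the 10 genes (rows) from its mean over the 6 libraries, on the log2 scale, in each library (columns, Was-/- left of the line and wild type right of it), with red for higher and blue for lower. WT453 is at 3.64 for Fos and 4.09 for Fosb but at -0.04 for Egr1 and -0.63 for Egr2, and KO451 is the lowest library in 8 of the 10 genes.

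Ier2, an early response gene that encodes a nuclear protein, had 1376, 1913 and 2275 normalized counts in Was-/- libraries, against 5365, 2089 and 2083 in wild-type libraries. WT454 and WT455 were level, KO457 lay above both, and the log2 fold change was -0.65 ± 0.41 (SE; limma, adjusted p = 0.57), or -0.20 ± 0.23 without WT453.

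The genes whose products end the early response are Zfp36 and Dusp1. Zfp36 encodes tristetraprolin, which binds AU-rich elements in messenger RNAs, among them that of Tnf, and speeds their decay. It had 2629, 5068 and 3444 normalized counts in Was-/- libraries, against 23498, 6965 and 5396 in wild-type libraries. The groups did not overlap, although KO452, at 5068, came near WT455, at 5396, and WT453 was 3.83-fold above the mean of the others. The log2 fold change was -1.42 ± 0.55 (SE; limma, unadjusted p = 0.0355, adjusted p = 0.424) and -0.78 ± 0.29 without WT453. In the authors' deposited table Zfp36 was the 1 gene of the 10 with an FDR under 0.05 (0.0271), where 1.44% of all 26452 genes were lower at that limit, followed by Fos (0.0677), Dusp1 (0.0756) and Fosb (0.0933) in the authors' deposited table.

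Dusp1 encodes a phosphatase that switches off the MAP kinases p38, JNK and ERK. It had 1616, 826 and 1170 normalized counts in Was-/- libraries, against 3876, 1619 and 2141 in wild-type libraries. The groups were separated by 3 counts only, between KO451 and WT454, which is inside the counting error of those libraries: 1507 reads in KO451 have a 95% exact Poisson interval of 1432 to 1585. The log2 fold change was -1.03 ± 0.38 (SE; limma, unadjusted p = 0.0302, adjusted p = 0.408), the smallest p of the 10, and -0.68 ± 0.31 without WT453. KO452 was the lowest library for Dusp1 and Egr2, whereas KO451 was the lowest for the other 8 genes, and 24.8% of genes tested were lowest in KO451.

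**Figure D3:**
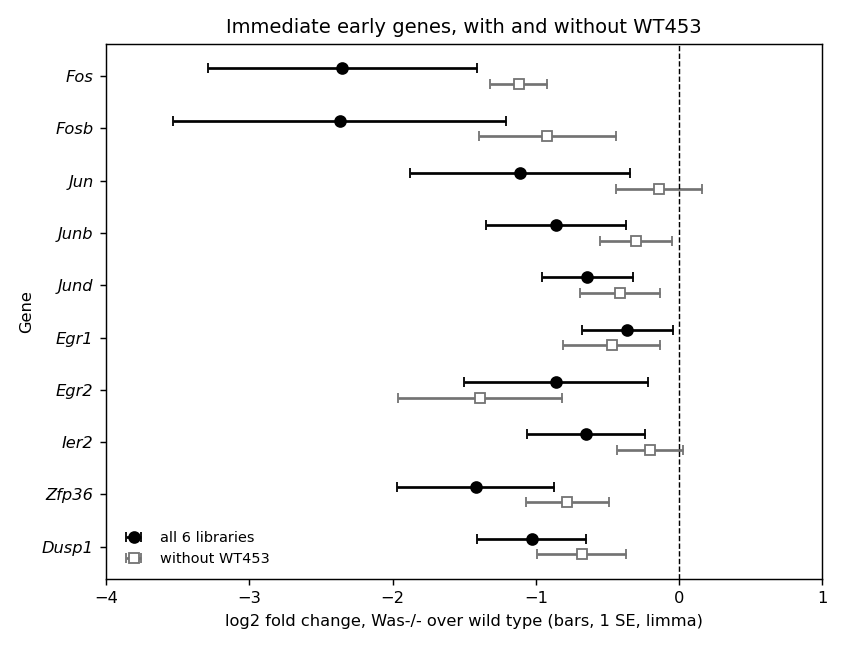
Log2 fold change of each gene, Was-/- over wild type, with bars of 1 standard error (limma), for all 6 libraries (filled) and without WT453 (open squares). Without WT453, Fos lies at -1.12 with the shortest bar of the 10, Jun moves to -0.14, and Egr1 and Egr2 are the genes that move away from 0.

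Set per kilobase of exon, the levels of the 10 genes spanned a wide range. In Was-/- spleens Jund was the highest, at 2570 to 4755 normalized counts per kilobase, followed by Ier2 (904 to 1495), Junb (875 to 1510) and Zfp36 (758 to 1461), whose ranges overlap one another. Dusp1 was at 249 to 488 per kilobase, above Egr1 (112 to 238), Jun (109 to 198) and Fos (111 to 139), which overlap. Egr2 was at 14.7 to 56.9 and Fosb the lowest at 5.32 to 12.5 normalized counts per kilobase. In wild-type spleens Jund was at 4123 to 6857 per kilobase, Zfp36 at 1555 to 6772, Junb at 1249 to 4470 and Ier2 at 1369 to 3525, which overlap one another except for Jund and Ier2. Jund was the highest in each wild-type library, but in WT453 it was close to Zfp36, at 6857 against 6772 per kilobase. Dusp1 was at 489 to 1171, Jun at 141 to 1160, Egr1 at 168 to 232, Fosb at 11.5 to 295 and Egr2 at 27.6 to 95.6 per kilobase. Fos, at 3455 per kilobase in WT453 and 260 and 273 in WT454 and WT455, ranked above Dusp1 and Egr1 in WT453 and below Dusp1 in the other libraries. Lengths are those of merged GENCODE exons, which need not be those the authors counted over.

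As a set, the transcripts had features that not every one of the 10 genes shared. The longest-coding transcript of each gene had a median of 2 exons over the 10 genes, against 9 over 14870 protein-coding genes tested, and those of Jun, Junb, Jund and Ier2 had a single exon, as in 3.20% of those genes. Median gene length was 3852.5 bases against 22803, although the Dusp1 model was longer than that, at 56539. The pentamer ATTTA, the core of AU-rich elements, had a median density of 2.87 per kilobase of 3' UTR, against 1.11 over those protein-coding genes. Fosb, at 0.47, and Ier2, with none, lay below that. The nonamer TTATTTATT, a site that Zfp36 protein binds, was found in the 3' UTR of Fos, Zfp36 and Dusp1, 3 of the 10 genes, against 6.80% of protein-coding genes tested. These are also the 3 genes whose groups did not overlap, which was noticed after the values were seen and was not tested. The elements are shown, like the pentamer above, in DNA letters, with the nonamer in capitals and up to 10 bases on each side, from GENCODE transcripts of GRCm38, for Fos at chr12:85477103-85477131 (plus strand), Zfp36 at chr7:28376951-28376979 (minus) and the first of 2 in Dusp1 at chr17:26506159-26506187 (minus).
Fos: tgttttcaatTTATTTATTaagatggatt
Zfp36: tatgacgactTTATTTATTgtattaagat
Dusp1: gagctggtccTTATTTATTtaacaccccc

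Several gene models overlap a neighbour on the other strand, and whether counting used strand is not given in the sources used here. Junb shares its 3' end with Prdx2, an antioxidant enzyme of red cells, which reached 1140 CPM and had a log2 fold change of 1.85, opposite to that of Junb. Dusp1 overlaps Ergic1 (45.1 to 63.3 CPM), Jun overlaps the antisense gene Junos (at most 2.61 CPM), Jund overlaps Gm11175 (at most 0.522 CPM) and Zfp36 overlaps Gm44710 (at most 0.294 CPM). Only reads in the bases that a pair shares cannot be told apart without strand. The Junb model spans 84974484 to 84978718, and Prdx2 ends at 84974834. The longest-coding Junb transcript is a single exon of 1809 bases, and from the RefSeq start (window 84978699 to 84978998) that length does not reach Prdx2. The Dusp1 model spans 26505590 to 26562128, and Ergic1 starts at 26561489. A Dusp1 transcript from the RefSeq start (window 26508423 to 26508722) does not reach Ergic1 either. These 2 overlaps thus concern longer models of Junb and Dusp1. Fos, Fosb, Egr1, Egr2 and Ier2 overlap no other model.

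The genes related to the 10 were set in lists, and the differences between lists were not tested. Among other early response genes, 29 of 40 tested were lower in Was-/- spleens, the median was -0.30 on the log2 scale (-0.25 without WT453), and 0 passed the adjusted limit (limma, smallest adjusted p = 0.344). At an unadjusted limma p under 0.05, 8 were lower and 1 was higher, against 5.46% and 5.50% of genes tested. Sik1, a kinase induced by cAMP, was at -0.71 ± 0.20 (SE), with log2 values of 11.29, 10.92 and 10.98 in Was-/- libraries, against 11.75, 11.64 and 11.91 in wild-type libraries. Klf2, a factor of resting lymphocytes, was at -0.92 ± 0.27 (SE), with 12.02, 12.97 and 12.24 in Was-/- libraries, against 13.43, 13.30 and 13.27 in wild-type libraries. WT453 was not set apart in either gene, and both kept their size without it (-0.72 for Sik1 and -0.88 for Klf2). Btg1, an antiproliferative gene (-0.68 ± 0.27 SE), and Mcl1, a survival protein (-0.39 ± 0.19 SE), were also lower. Of the 11 genes of this list that were higher in Was-/- spleens, the 1 with an unadjusted limma p under 0.05 was Ppp1r15a, a stress-induced phosphatase subunit, at 1.48 ± 0.40 (SE; limma, adjusted p = 0.344), with 119 CPM in Was-/- and 45.5 CPM in wild-type libraries.

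The other AP-1 relatives were lower in 7 of 16 genes, with a median of 0.11 (0.26 without WT453). Maf, a factor of macrophages and T cells, was at 0.95 ± 0.43 (SE) and Batf2 at 1.11 ± 0.55 (0.48 and 0.72 without WT453). Red pulp macrophage genes were higher in 8 of 8, with a median of 1.12. Without WT453 the median was 0.49, and 1 of the 8 was lower. These genes summed to between 4190 and 7280 CPM in Was-/- libraries. In wild-type libraries they summed to 1130 CPM in WT453, 3490 in WT454 and 4230 in WT455. Their part in the Maf value was not tested. Atf4, a factor of the stress response, was at -0.12 ± 0.38. Of 7 Egr and NR4A relatives, 6 were lower with a median of -0.45, and without WT453 7 of 7 were lower with a median of -0.59, beside -0.57 for the 10 immediate early genes. They held Nr4a1, a nuclear receptor induced by antigen receptor signals (-0.46 ± 0.34 SE), and Nab2, which binds and represses EGR proteins (-0.57 ± 0.35 SE), while Nab1, of like function, was at 0.22 ± 0.38 with all libraries. Egr4 was listed at 0 in all 3 Was-/- libraries and in WT454, with a wild-type mean of only 0.0854 CPM, too low to compare the groups. Other dual specificity phosphatases were lower in 7 of 11, with a median of -0.07, and without WT453 in 8 of 11, with a median of -0.38. They held Dusp2, a nuclear phosphatase of activated immune cells, at -0.75 ± 0.27 (SE), Dusp6, an ERK phosphatase, at -0.39 ± 0.25, and Dusp8 at 2.54 ± 0.71, with 11.3 CPM in Was-/- and 1.65 CPM in wild-type libraries. None of the genes in these lists passed the adjusted limit (limma), and those at an unadjusted p under 0.05 included Dusp2 and Dusp8.

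Among the kinases and factors that act upstream of early genes, 17 of 31 were lower with a median of -0.10, and without WT453 21 of 31 with a median of -0.22. The groups did not overlap in 5 genes of this list that were lower and in 1 that was higher. Over all genes tested, 9.94% were lower without overlap. Among the 5 were Elk4, an SRF partner (-0.81 ± 0.27 SE), Crtc3, a CREB coactivator (-0.65 ± 0.21 SE), and Mef2d (-0.64 ± 0.20 SE). Rps6ka1 and Mapkapk2, kinases activated by ERK and p38, were at 0.08 ± 0.25 and 0.03 ± 0.22. An unadjusted p under 0.05 (limma) was found for 6 genes of this list, all lower, against 5.46% of genes tested lower at that limit. In this list 0 passed the adjusted limit. Proteins that bind AU-rich elements were lower in 3 of 7 with a median of 0.04 (0.11 without WT453), among them Zfp36l2, a relative of Zfp36 (-0.45 ± 0.37 SE), Elavl1 (0.44 ± 0.47) and Hnrnpd (0.20 ± 0.22). NF-kB targets were lower in 11 of 14 with a median of -0.31, and without WT453 in 9 of 13 tested with a median of -0.35. Birc3 was at -0.47 ± 0.22 and Ccl4, a chemokine, at -0.72 ± 0.43 (SE), and Nfkb1 and Cd83 were at -0.08 ± 0.37 and 0.27 ± 0.56. Cxcl1 was listed at 0 in all Was-/- libraries and in WT455, with a wild-type mean of only 0.0674 CPM, too low to compare the groups. In both of these lists 0 genes passed the adjusted limit and 0 had an unadjusted limma p under 0.05.

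**Figure D4:**
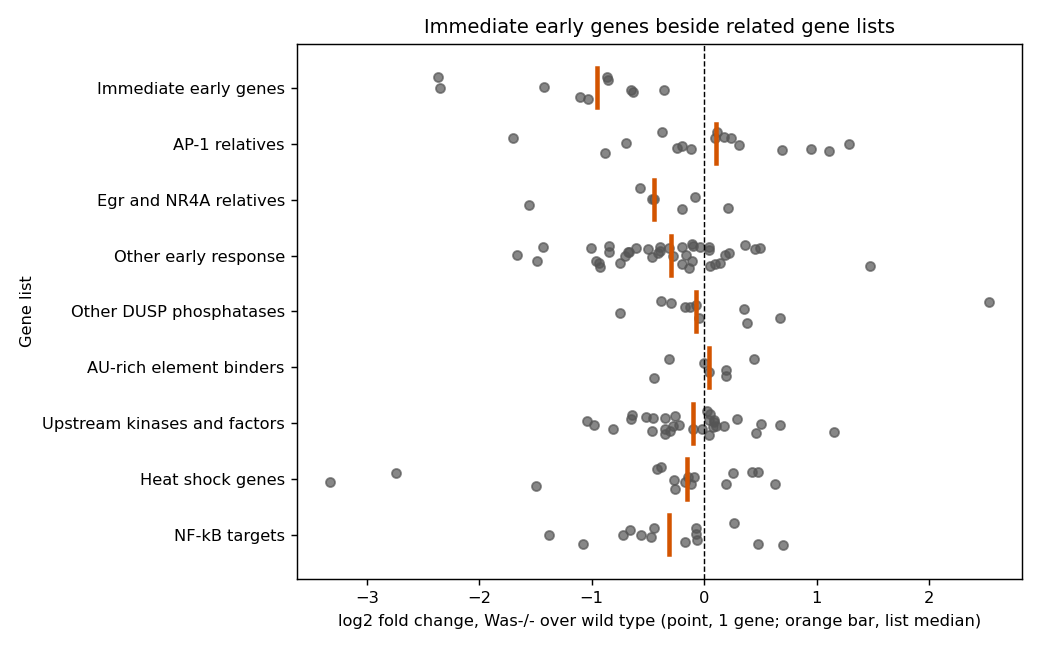
Log2 fold change, Was-/- over wild type, of each tested gene (grey points, spread vertically at random for display) in 9 gene lists, with orange bars at list medians and a dashed line at 0. The 10 immediate early genes lie wholly below 0 with a median of -0.95, and the other early response genes are at -0.30 with points on both sides.

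Other gene groups moved with WT453 and with KO451. Heat shock genes, which encode chaperones, had a mean of 0.75 above their 6-library mean in WT453 on the log2 scale and between -0.36 and 0.03 elsewhere. The rise did not cover the whole list, as WT453 was the highest library in 8 of the 16 tested. Hspa1b, which has a near-identical copy, had log2 values of 4.85, 5.91 and 5.18 in Was-/- libraries, against 12.22, 7.48 and 6.22 in wild-type libraries. Stroma and endothelium genes were at 1.45 in WT453 on the same scale and between -0.70 and 0.04 elsewhere, and summed to between 151 and 243 CPM in Was-/- libraries and between 237 and 295 CPM in wild-type libraries. The abundant heat shock genes differed less, Hspa8 by -0.27 ± 0.21 and Hsp90ab1 by -0.09 ± 0.20 (log2 fold change ± SE), while Hsp90aa1 was at 0.63 ± 0.30. Dnajb4 was at 0.48 ± 0.23 (SE). Both Hsp90aa1 and Dnajb4 were lowest in WT453, at log2 values of 12.73 and 8.81. The 12 genes of neutrophils and monocytes, none of them at 0 in every library, summed to between 11000 and 50100 CPM in Was-/- libraries and between 5010 and 75900 CPM in wild-type libraries, with WT453 the highest. KO457 had the second highest sum of that list, and its immediate early genes were on average 0.54 below their 6-library means. The 12 genes of red cell precursors, none at 0, summed to between 28100 and 83400 CPM in Was-/- libraries and between 2490 and 12600 CPM in wild-type libraries, with KO451 the highest. The part of any of these lists, that of neutrophils and monocytes included, in the immediate early gene result was not tested. Over all genes tested, 23.9% were more than 2-fold higher in WT453 than the mean of WT454 and WT455, against 7 of the 10 immediate early genes, and 4.64% were more than 8-fold higher, against 2 of the 10.

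**Figure D5:**
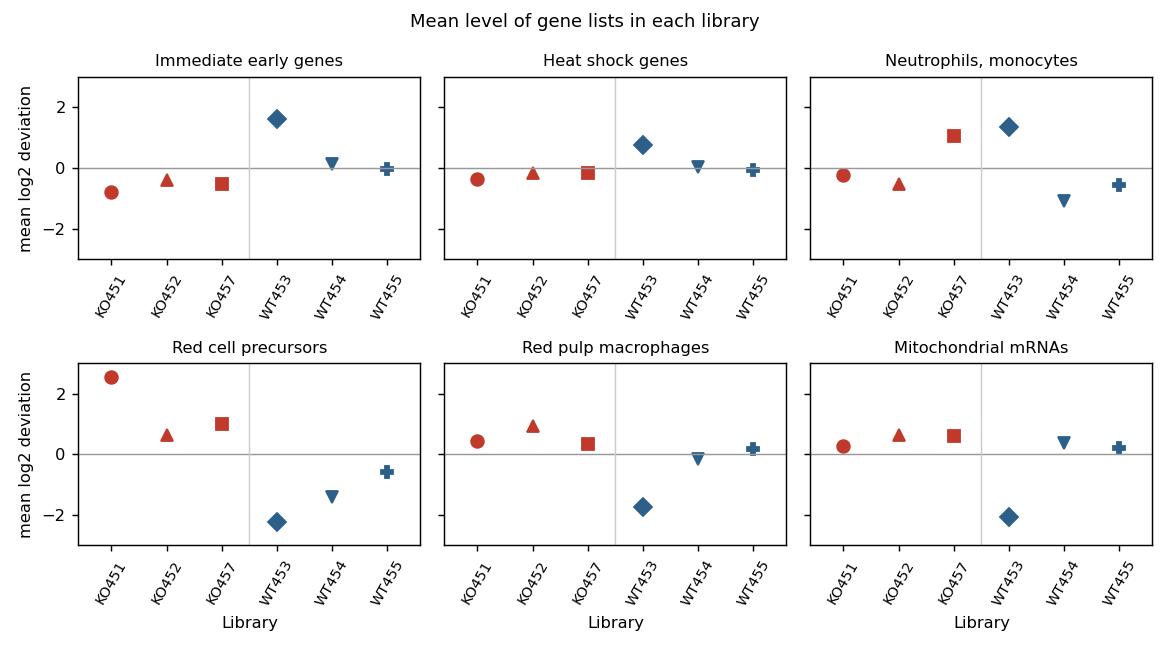
Mean deviation of 6 gene lists from their 6-library means (log2, vertical axis) in each library (horizontal axis, Was-/- in red left of wild type in blue). Immediate early genes are at 1.63 in WT453 and between -0.80 and 0.14 in the other libraries, and in WT453 the mean of the heat shock list is also highest while red cell, red pulp macrophage and mitochondrial lists are lowest.

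Of 10652 other genes with a mean of at least 100 normalized counts, those whose profile over the 6 libraries was most like the mean of the 10 were Nradd, Notch1, Ino80d, Zc3h7a and Crtc2, chosen for a Pearson likeness between 0.996 and 0.999. Notch1, a receptor that controls lymphocyte fate, had log2 values of 10.52, 10.79 and 10.79 in Was-/- libraries, against 12.32, 11.28 and 11.11 in wild-type libraries. Crtc2, a CREB coactivator, had 10.18, 10.67 and 10.44 in Was-/- libraries, against 12.38, 11.05 and 10.79 in wild-type libraries. Most like Fos alone were Ccdc84, Fam114a2 and Cbl, the last a ubiquitin ligase that acts on activated receptors. The 6 points share their libraries, and WT453 was the highest library in each of these profiles. Over the 5 libraries without WT453 the likeness was between 0.97 and 1.0 for the genes most like the mean of the 10, and between 0.92 and 1.0 for those most like Fos, as a description of genes chosen with WT453 in the profile.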

How the data were processed

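RNA sequencing of 3 Was-/- and 3 wild-type spleens was analysed from 1 table of the authors, with a log2 value for each gene and library. The submitters' processing notes name GRCm38 and, with no role stated, STAR 2.5.3a, StringTie 1.3.1c, FastQC 0.11.5 and DESeq, and which annotation, filters or strandedness were applied is not stated there. Each deposited log2 value came from reads over a size factor, with 1 added before taking the log2: 100% of values gave whole reads within a tolerance of 0.001. The authors' p-value and FDR come from a comparison whose test is not stated, and their deposited fold change equals Was-/- minus wild type in mean log2 values.

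All 22071 genes with a mean normalized count of at least 1 were tested in 1 fit with limma 3.58.1 (R 4.3.3), an intensity trend, 2 groups and no covariate, on the deposited values. Benjamini-Hochberg adjustment used a limit of 0.05. Adding 1 shrinks the fold change of low genes. The fit was checked on simulated data. Each p-value rests on the variation among 3 animals a group, moderated toward a trend over all genes tested. P-values without WT453 rest on WT454 and WT455 alone in the wild-type group.

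The 10 genes and the other lists were chosen with earlier results of these data known. Named genes are Was, the 10, up to 3 genes of each related list with the smallest p and 2 with the highest mean, and the genes with the most similar profiles. A gene of the AP-1 relatives that this rule names is counted in its list but not reported here. Positions, exons and 3' UTRs came from GENCODE M21, in which 26404 of 26452 identifiers were found, and start-site windows from RefSeq. The alternatives tried were no filter, a filter at 1 CPM, pseudocounts of 0.1 and 0.01, quantile normalization, scaling by total reads, size factors without immunoglobulin and haemoglobin genes, voom, sample weights, a limit of 0.01 and each library left out.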

Additional observations from a re-analysis of the deposited data

How the results depend on the processing

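All 10 immediate early genes kept a lower mean in Was-/- spleens, and 0 passed the adjusted limit, under every alternative that was run. Was itself also missed that limit in some alternatives (limma, adjusted p up to 0.446), so not passing there says little about the 10. Their median log2 fold change was -0.95 in the test as reported and ranged from -1.20 to -0.57 with 1 library left out, the last without WT453. It was -0.62 in voom with sample quality weights and -0.60 with sample weights, which gave WT453 a weight of 0.16. Scaling by total reads moved the median of all genes to -0.17, and that of the 10 genes to -1.10. The number of genes called over the whole table was 2 as reported, 1 with voom, 4 with voom and sample quality weights, 16 with sample weights and 0 at a limit of 0.01. With 1 library left out it ranged from 0 to 2, with 2 without WT453 and 0 without any of the others. The cause of these changes in number was not tested. No paired analysis was run, because the labels do not pair Was-/- animals with wild-type animals. Fosb and Egr2 had the fewest reads of the 10, which adds counting error to their values. Standard errors did not follow reads alone: they were 1.16 for Fosb and 0.64 for Egr2, but 0.94 for Fos and 0.77 for Jun (limma, all 6 libraries).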
